A study of Mus musculus with 4 samples.

Results

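The ligands Il6 and Lif, the receptor chains Osmr, Lifr and Il6st, the kinase Jak2, the transcription factor Stat3 and the inhibitors Socs1, Socs2 and Socs3 were followed as 1 signalling route in muscle stem cells (satellite cells). These 10 genes were found by symbol among the 24328 rows of the expression table, and 8 of them reached the level needed for testing. Polyadenylated RNA had been sequenced from freshly sorted, quiescent cells of mice perfused with paraformaldehyde, in 2 libraries a group. All 4 libraries carried Pax7CreERT2/+, a Cre recombinase made from the Pax7 locus that tamoxifen can switch on. The YFP group was Pax7CreERT2/+; ROSA26YFP/+ at 7 months of age. The DEK group was Pax7CreERT2/+; H11DEK-EGFP/+ at 4.5 months of age, and its transgene codes for the chromatin protein Dek joined to EGFP. Age, reporter and insertion site went with the group, so their parts in a difference cannot be told apart. The labels give neither the number of mice behind a library nor the timing of tamoxifen, so p-values reflect library-to-library spread, which may be technical.

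Cytokines of the Il6 family act through receptors that share the chain Il6st, also called gp130. Il6 engages it with its own receptor Il6ra, Lif engages it with Lifr, and oncostatin M in mouse engages it mainly with Osmr. Janus kinases bound to these chains phosphorylate Stat3, which enters the nucleus and switches on target genes. Socs1 and Socs3 are among the genes so induced and shut the kinases down again, while Socs2 is best known for restraining growth hormone signalling through Stat5. In muscle, Il6, Lif and Stat3 have been studied as signals for the expansion and commitment of satellite cells.

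Values are FPKM, sequenced fragments scaled for transcript length and library size, so levels of different genes can be compared. Read depth is unknown because the table gives no counts, and column totals ran from 541183 to 545123 FPKM. Dek itself stood at 512 and 504 FPKM in YFP replicates 1 and 2 against 3196 and 1639.5 FPKM in replicates 1 and 2 of DEK. All 14 satellite cell markers were detected, with a summed level of 2439 to 2517 FPKM in YFP and 2729 to 3392 FPKM in DEK. Summed markers of endothelium, macrophages, other leukocytes and fibro-adipogenic progenitors were higher in both DEK libraries than in either YFP library. The 16 endothelial markers summed to 75.7 to 79.0 FPKM in the YFP libraries against 205 to 249 FPKM in the DEK libraries, and 4 of them, among them Kdr and Flt1, were listed at 0 in both YFP libraries. The 14 measured macrophage markers summed to 7.49 to 23.3 FPKM in the YFP libraries against 101 to 125 FPKM in the DEK libraries, with C1qa, C1qb and C1qc at 0 in YFP. The 15 other leukocyte markers summed to 6.57 to 62.0 FPKM in YFP and to 109 to 234 FPKM in DEK, with 8 at 0 in both YFP libraries. The 12 markers of fibro-adipogenic progenitors summed to 811 to 941 FPKM in YFP and to 1289 to 1410 FPKM in DEK. Dpt and Gsn made up most of this sum in every library, at 412 and 487 FPKM in YFP replicate 1. Tek made up most of the endothelial sum in YFP, at 55.9 and 56.7 FPKM. Lyz2 made up most of the macrophage sum in DEK, at 73.4 and 100 FPKM. S100a8 and S100a9 made up most of the other leukocyte sum in every library. These sums thus mostly follow a few abundant genes. Summed markers of pericytes and smooth muscle (553 to 582 FPKM in YFP, 450 to 620 FPKM in DEK) and of myofibres (87.8 to 101 FPKM in YFP, 63.1 to 111 FPKM in DEK) overlapped between the groups. Des, also a satellite cell marker, was the largest part of the first sum in every library. Of its 10 genes, the limma test described below called 2 higher (Rgs5 and Myh11) and 0 lower. The same test called 4.57% of all tested genes higher and 3.21% lower. Rgs5 was at 2.81 and 2.14 FPKM in YFP against 23.0 and 12.1 FPKM in DEK. Myh11 was at 0.175 and 0 FPKM in YFP against 3.21 and 3.53 FPKM in DEK. It was tested only because its DEK values passed 1 FPKM. The part of these cells in the results below was not tested, and in bulk RNA fewer cells of a type and less RNA per cell cannot be told apart.

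The promoters of Socs3 and Socs1 are shown because these feedback genes stood high together in 1 DEK library, and that of Osmr because it is a receptor gene that fell. Each is the stretch of 250 bases before the RefSeq start (build GRCm38.p6), read 5′ to 3′ on the gene's strand. Capitals mark matches to a searched motif. The Socs3 stretch is chr11:117969367-117969616, the Socs1 stretch chr16:10785537-10785786 and the Osmr stretch chr15:6874314-6874563, all 3 on the minus strand.
Socs3: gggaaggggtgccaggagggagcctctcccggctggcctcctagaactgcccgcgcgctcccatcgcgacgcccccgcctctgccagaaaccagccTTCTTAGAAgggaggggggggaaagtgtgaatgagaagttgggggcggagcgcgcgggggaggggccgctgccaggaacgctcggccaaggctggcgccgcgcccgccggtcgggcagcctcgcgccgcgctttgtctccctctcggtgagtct
Socs1: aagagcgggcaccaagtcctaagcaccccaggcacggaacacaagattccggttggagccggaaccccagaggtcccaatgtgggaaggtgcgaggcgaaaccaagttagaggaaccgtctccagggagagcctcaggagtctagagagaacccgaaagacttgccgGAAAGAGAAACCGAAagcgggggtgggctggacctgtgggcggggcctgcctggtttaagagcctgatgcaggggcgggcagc
Osmr: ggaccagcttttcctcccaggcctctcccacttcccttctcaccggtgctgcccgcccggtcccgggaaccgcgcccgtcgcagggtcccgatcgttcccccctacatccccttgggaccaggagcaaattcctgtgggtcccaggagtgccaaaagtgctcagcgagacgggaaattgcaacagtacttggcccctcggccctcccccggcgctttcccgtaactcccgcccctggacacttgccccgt
The motifs below were searched on both strands: TTCNNNGAA for STAT factors, GAAANNGAA for interferon regulatory factors, TGANTCA for AP-1, TGACGTCA for CRE-binding factors and GGGANTTTC for NF-kB. Socs3 held 1 STAT match, TTCTTAGAA, at 154 to 146 bases before the start, and 7.02% of the 32851 promoter stretches of this length hold such a match. Socs1 held a pair of overlapping interferon regulatory factor matches, GAAAGAGAA and GAAACCGAA, between 83 and 69 bases before the start, against 7.13% of all stretches with at least 1. The Il6 promoter held an AP-1 and an NF-kB match (6.75% and 0.941% of all stretches) and the Lif promoter an AP-1 match. No match was found for Osmr, Lifr, Il6st, Jak2 and Stat3. A match is a run of letters and not a shown binding site, and its absence says only that these letters are not in this stretch. The motifs were chosen with these sequences in view, so the shares do not measure how unusual a match is. Stretches were matched by symbol for 9 of the 10 genes. None was found for Socs2, so its promoter was not searched.

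The comparison of DEK with YFP addressed what raised Dek does to RNA levels in quiescent satellite cells, here along a cytokine route. Socs2 and the oncostatin M receptor chain Osmr fell in DEK, to a level below that of both YFP libraries in each DEK library. Socs1 and Socs3 stood far above YFP in DEK replicate 1 and modestly above it in DEK replicate 2, and did not pass the test. The shared chain Il6st, Lifr, Jak2 and Stat3 differed by less than 2-fold between group means and did not pass either. The ligands Il6 and Lif stayed under 1 FPKM in all 4 libraries.

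Differences were tested with limma on log2(FPKM + 1), and p-values were adjusted (Benjamini-Hochberg) over the 12179 tested genes, with 0.05 as the threshold for a call. Of the 8 tested genes 2 fell and 0 rose, while limma called 3.21% of all tested genes lower and 4.57% higher. At an unadjusted p under 0.05, which 29.1% of all tested genes met, there were 5 lower and 1 higher. The median log2 fold change of the 8 genes was -0.39, against 0.05 over all tested genes. The groups did not overlap for any of the 8 genes, with 3 above and 5 below YFP in DEK, while 60.9% of all tested genes did not overlap, 34% above and 26.9% below. An exact permutation test of 1 gene over 2 against 2 libraries cannot give a p under 0.333.

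**Figure D1:**
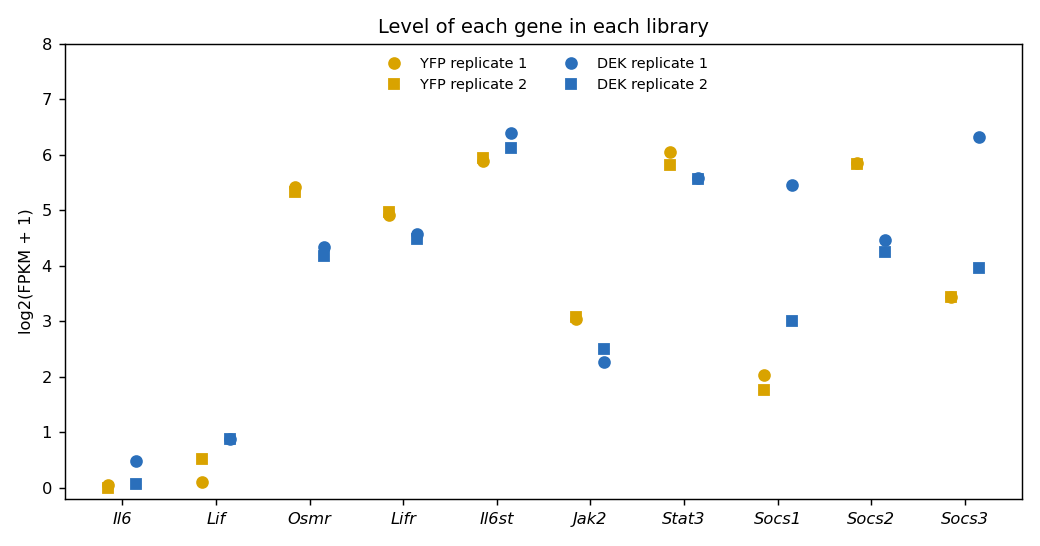
Level of the 10 genes in each library, as log2(FPKM + 1) on the vertical axis, with YFP libraries in yellow, DEK libraries in blue, circles for replicate 1 and squares for replicate 2. Osmr and Socs2 lie lower in both DEK libraries, and the DEK circles of Socs1 and Socs3 (43.1 and 78.7 FPKM) lie well above their squares (7.01 and 14.5 FPKM).

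Among the ligands, Il6, which in muscle can be made by fibres, immune cells and stem cells, was at 0.0304 FPKM in YFP replicate 1, listed at 0 in YFP replicate 2, against 0.405 and 0.0494 FPKM in replicates 1 and 2 of DEK. Lif, the cytokine that engages Il6st with Lifr, was at 0.0788 and 0.428 FPKM in the YFP libraries, with 0.846 and 0.843 FPKM in the DEK libraries. For both genes the DEK values lay above the YFP values, by amounts under 1 FPKM. Neither reached 1 FPKM in any library, so neither was tested and no fold change is given for them.

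Osmr, the chain that pairs with Il6st to bind oncostatin M, was at 41.6 and 39.1 FPKM in YFP replicates 1 and 2 against 19.2 and 17.0 FPKM in replicates 1 and 2 of DEK. The DEK libraries lay close together and well under both YFP libraries. The group means were 40.4 ± 1.77 and 18.1 ± 1.54 FPKM (SD, n = 2 each), a 2.23-fold lower level in DEK. On the log2 scale the fitted change was -1.12 (SE 0.15), with a limma adjusted p of 0.0159.

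Lifr, the chain that pairs with Il6st to bind Lif and lies next to Osmr on chromosome 15 with 0 other protein-coding genes in between, was at 29.2 and 30.3 FPKM in the YFP pair against 22.8 and 21.3 FPKM in the DEK pair. Both DEK values were lower than both YFP values, by a smaller factor than for Osmr. Its fitted log2 change was -0.41 (95% interval -0.76 to -0.06), with a limma unadjusted p of 0.0275 and an adjusted p of 0.127.

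Il6st, the signal-passing chain of the whole family, was at 58.5 and 60.8 FPKM in the YFP libraries, with 83.5 and 68.6 FPKM in the DEK libraries. It was the only receptor chain of these 3 whose DEK values were higher. Il6st had a log2 fold change of 0.34 (95% interval -0.03 to 0.71, limma adjusted p = 0.204). The ratio of Osmr to Il6st within a library, which no scaling between libraries can move, was 0.712 and 0.643 in YFP and 0.230 and 0.248 in DEK. That of Lifr to Il6st was 0.499 and 0.498 in YFP and 0.273 and 0.311 in DEK. That of Osmr to Lifr was 1.43 and 1.29 in YFP and 0.841 and 0.80 in DEK. The partner chains were thus scarcer per Il6st transcript in both DEK libraries, Osmr more so than Lifr, although a ratio shows only unequal change.

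**Figure D2:**
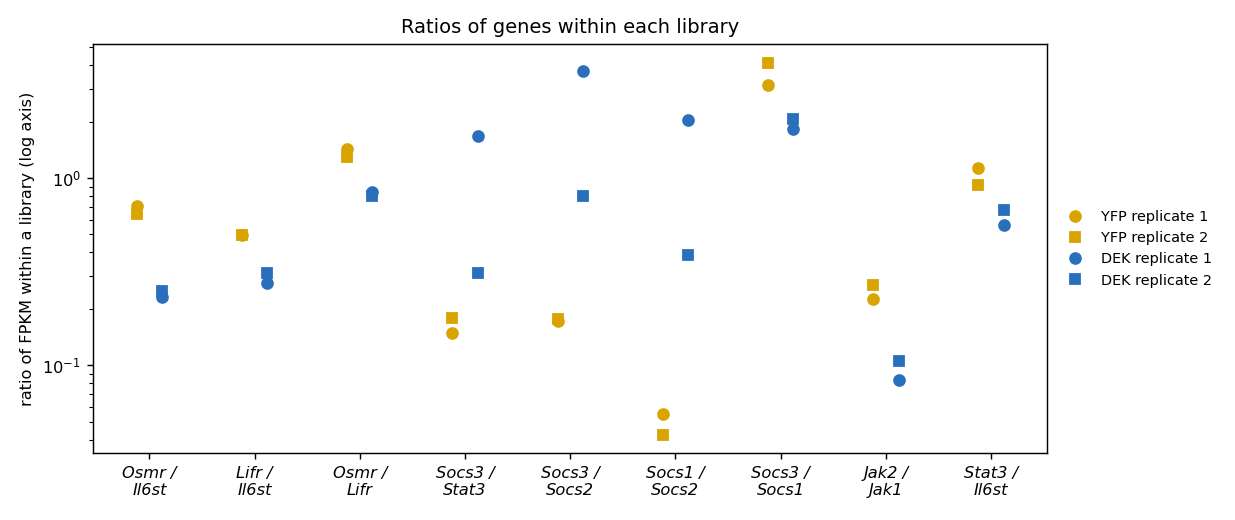
Ratio of the FPKM of gene pairs within each library, on a log axis, with YFP in yellow, DEK in blue, circles for replicate 1 and squares for replicate 2. For each of the 9 pairs the DEK values do not overlap the YFP values. Taken singly, the 8 tested genes and 60.9% of all tested genes do not overlap either. No share was computed for other pairs, so nothing is read from this count. Socs3 over Stat3 and Socs3 or Socs1 over Socs2 differ most between the DEK libraries.

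Jak2, a Janus kinase that serves both gp130 and growth hormone-type receptors, was at 7.22 and 7.49 FPKM in the YFP pair against 3.80 and 4.63 FPKM in the DEK pair. Both DEK libraries were lower, and the group means were 7.36 ± 0.189 and 4.22 ± 0.588 FPKM. The log2 fold change was -0.68 (95% interval -1.15 to -0.22) with a limma unadjusted p of 0.0114 and an adjusted p of 0.0810, which missed the threshold. Jak1, the Janus kinase most used by gp130, was at 31.8 and 27.9 FPKM in the YFP libraries, with 45.5 and 44.1 FPKM in the DEK libraries. Its log2 fold change was 0.57 (limma adjusted p = 0.0673). The ratio of Jak2 to Jak1 was 0.227 and 0.268 in YFP and 0.0836 and 0.105 in DEK, lower in both DEK libraries.

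Stat3, the transcription factor that carries the signal, was at 65.8 and 55.6 FPKM in the YFP pair against 46.7 and 46.5 FPKM in the DEK pair. The DEK libraries were nearly equal and below both YFP libraries, whose own spread was 7.22 FPKM (SD). The log2 fold change was -0.37 (95% interval -0.73 to -0.01, limma adjusted p = 0.164). Stat3 shares exon sequence with its neighbour Stat5a on the opposite strand, and use of strand in the counting is not stated, so reads of the overlap may have been split between them. Stat5a was at 15.0 and 15.2 FPKM in the YFP libraries, with 10.3 and 13.2 FPKM in the DEK libraries.

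**Figure D3:**
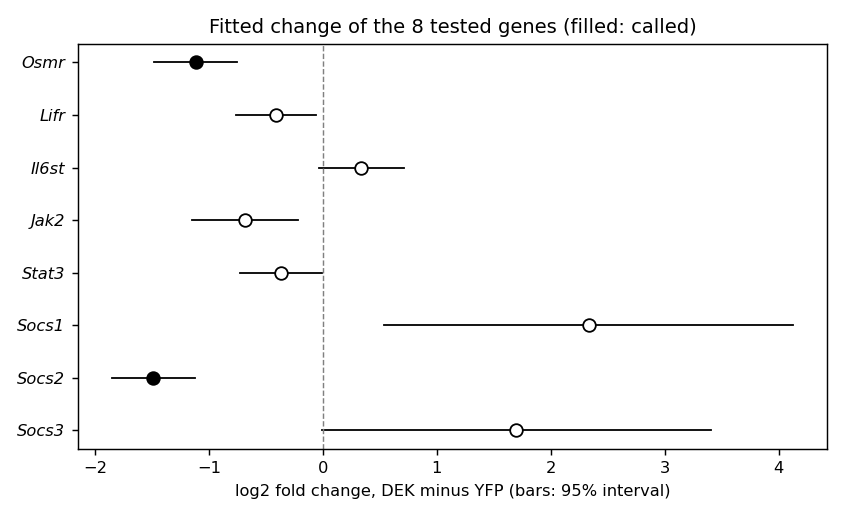
Fitted log2 fold change (DEK minus YFP, horizontal axis) of the 8 tested genes with its 95% interval; filled points passed limma at an adjusted p under 0.05. Osmr (-1.12) and Socs2 (-1.49) are filled, and the intervals of Socs1 and Socs3 are the widest.

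Socs2, the SOCS protein that restrains growth hormone signalling, was at 56.7 and 56.4 FPKM in YFP replicates 1 and 2 against 21.0 and 18.1 FPKM in replicates 1 and 2 of DEK. The YFP libraries were nearly equal and neither DEK library came near them. The group means were 56.5 ± 0.216 and 19.6 ± 2.07 FPKM (SD, n = 2 each), a 2.89-fold lower level in DEK. The fitted log2 change was -1.49 (SE 0.15), with a limma adjusted p of 0.00721. Socs2 had the smallest p of the 8 genes and stood at rank 94 of the 12179 genes tested.

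Socs1, which blocks Janus kinases directly and is strongly induced by interferons, was at 3.11 and 2.40 FPKM in YFP replicates 1 and 2 against 43.1 and 7.01 FPKM in replicates 1 and 2 of DEK. Both DEK values were above both YFP values, but DEK replicate 1 held 6.14 times the level of DEK replicate 2. The log2 fold change was 2.33 (95% interval 0.53 to 4.13, limma unadjusted p = 0.0192, adjusted p = 0.105).

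Socs3, the feedback inhibitor that docks on Il6st, was at 9.78 and 9.90 FPKM in YFP against 78.7 and 14.5 FPKM in replicates 1 and 2 of DEK. The YFP libraries were nearly equal, DEK replicate 2 lay a little above them, and DEK replicate 1 held 5.42 times the level of DEK replicate 2. The log2 fold change was 1.70 (95% interval -0.01 to 3.402, limma adjusted p = 0.173). The gap between the DEK libraries was 2.46 for Socs1 and 2.36 for Socs3 on the log2 scale, larger than for 99.7% of tested genes in both cases, while the median gap was 0.20. The gaps of the other 6 tested genes ran from 0.01 to 0.28.

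The dissociation response also differed between the DEK libraries. Its list of 27 genes holds mainly immediate early and heat shock genes that rise within minutes of stress or tissue digestion. Taken against the YFP mean, the median difference of these 27 genes was 4.35 (log2) for DEK replicate 1 and 1.77 for DEK replicate 2. By limma 10 of the 27 rose and 1 fell, while 4.57% of all tested genes were called higher and 3.21% lower. Socs1 differed by 3.56 and 1.10 and Socs3 by 2.88 and 0.52 in the same order. Osmr differed by -1.03 and -1.20 and Socs2 by -1.38 and -1.59. Dek was also higher in DEK replicate 1, at 1.95 times the level of DEK replicate 2. The parts of the stress response and of the Dek level in the Socs1 and Socs3 values were not tested. Per Socs2 transcript, Socs3 stood at 0.173 and 0.176 in YFP and at 3.74 and 0.802 in DEK, so the order of these inhibitors turned round in DEK replicate 1 only.

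**Figure D4:**
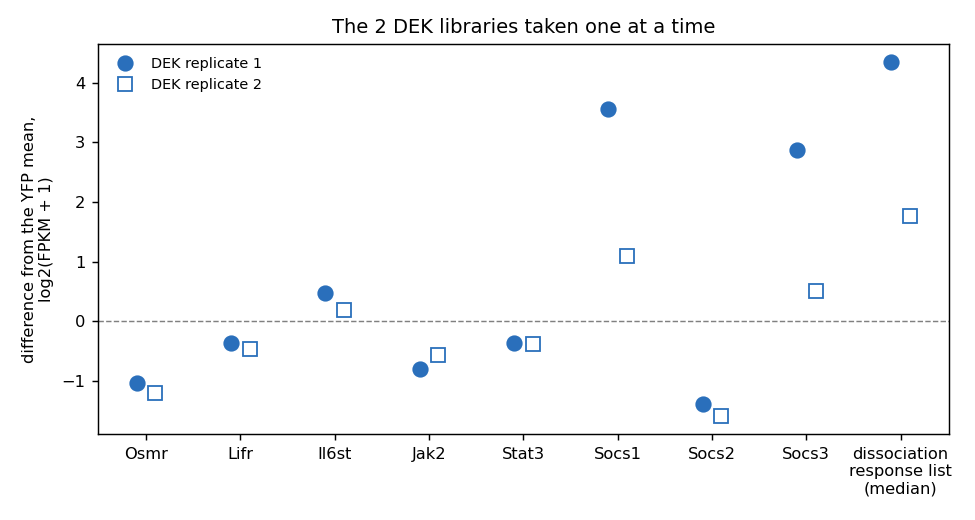
Difference of each DEK library from the YFP mean on the log2(FPKM + 1) scale for the 8 tested genes and, at the right, the median of the 27 dissociation response genes; filled circles are DEK replicate 1 and open squares DEK replicate 2. Socs1, Socs3 and the list median part between the libraries, while Osmr and Socs2 lie below 0 in both.

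Ordered by mean level, YFP cells held Stat3 and Il6st first, at means of 60.7 and 59.7 FPKM that overlapped in their ranges. Then came Socs2, Osmr, Lifr, Socs3, Jak2, Socs1, Lif and Il6, each outside the range of the gene just before it. The Socs2 range (56.4 to 56.7 FPKM) nevertheless lay within that of Stat3 (55.6 to 65.8 FPKM). In DEK Il6st came first at 76.0 FPKM, followed by Stat3, Socs3, Socs1 and Lifr, each overlapping the next because of the spread of Socs1 and Socs3. Socs2 and Osmr came next at 19.6 and 18.1 FPKM with overlapping ranges, and Jak2, Lif and Il6 came last. The DEK ranges of Socs3 and Socs1 also took in those of Socs2 and Osmr, and that of Socs3 reached into the Il6st range.

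Leaving out 1 library on the same genes ended both calls each time. Without replicate 1 or 2 of YFP and then replicate 1 or 2 of DEK, the limma adjusted p was 0.0940, 0.109, 0.106 and 0.0827 for Osmr and 0.0705, 0.0803, 0.0838 and 0.0541 for Socs2. The unadjusted p of both genes was 0.00412 or less each time, and the log2 fold changes ran from -1.03 to -1.20 and from -1.38 to -1.59. In these 3-library fits limma called 115, 69, 0 and 184 of all genes, against 948 with all libraries. Each of these fits has 1 group of a single library, which is assumed to vary like the pair in the other group. Without DEK replicate 2, the lower of the DEK pair for both genes, Socs1 and Socs3 passed limma with the spread taken from the YFP pair, with log2 fold changes of 3.56 and 2.88 (adjusted p = 0.0411 and 0.0368). Without DEK replicate 1 their log2 fold changes were 1.10 and 0.52 (adjusted p = 0.201 and 0.307).

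By the distance between log2(FPKM + 1) values centred on each gene's mean, the genes whose levels over the 4 libraries were most like those of Socs2 were Foxm1 (distance 0.0934), Dusp4 (0.0985), Map3k6 (0.121), Arrdc2 (0.124) and Rgcc (0.163). Foxm1, a transcription factor of mitotic genes, was at 3.04 and 3.01 FPKM in the YFP pair against 0.667 and 0.398 FPKM in the DEK pair. The added 1 brings genes this low closer to Socs2: the YFP mean in FPKM was 5.68 times the DEK mean for Foxm1 and 4.38 times for Dusp4, against 2.89 times for Socs2. Arrdc2 was at 166 and 181 FPKM in the YFP libraries, with 62.0 and 57.9 FPKM in the DEK libraries. They were picked for this likeness, so it is a description and no test is given.

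The other genes of the route were taken from lists by role. Of 76 such genes in the table, 58 were tested, of which 5 rose and 3 fell by limma, 13.8% against 7.78% of all tested genes called in either direction. Their median log2 fold change was 0.26, against 0.05 over all tested genes. All 5 that rose were in the list of STAT3-responsive genes, and those that fell were in 3 lists. Of these 8 genes, 3 (Lrg1, Fgl2 and Serpina3n) passed the low filter only through the group where they were higher, so nothing is read from the share or the median. Without replicate 1 or 2 of YFP and then replicate 1 or 2 of DEK, 1, 0, 0 and 5 of the 58 genes rose and 0, 1, 0 and 0 fell by limma.

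Among the other ligands 4 of 9 were tested and 0 passed limma. At an unadjusted p under 0.05, which 29.1% of all tested genes met, 2 were higher. Clcf1, a ligand of the Cntfr receptor, was at 88.1 and 87.2 FPKM in the YFP libraries, with 115 and 105 FPKM in the DEK libraries (log2 fold change 0.33, limma adjusted p = 0.167). Ctf1, cardiotrophin, had a log2 fold change of 0.40 (limma adjusted p = 0.205). These ligand RNAs stood far above those of Il6 and Lif in every library. Osm, the ligand of Osmr, was at 0 in each YFP library, with 0.158 and 0.0430 FPKM in the DEK libraries.

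Among the other receptors only Il11ra1 was tested, at 54.5 and 46.9 FPKM in the YFP pair against 46.8 and 48.3 FPKM in the DEK pair (log2 fold change -0.09, limma adjusted p = 0.730). Il6ra, which Il6 needs on the cell that responds directly, was at 0.852 and 1.24 FPKM in the YFP libraries, with 0.548 and 0.527 FPKM in the DEK libraries. Cntfr was under 1 FPKM in all 4 libraries.

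Of the other Janus kinases and STAT factors 7 of 9 were tested and 0 passed limma. At an unadjusted p under 0.05, which 29.1% of all tested genes met, there were 2 higher and 1 lower. Tyk2, a Janus kinase of interferon receptors, had a log2 fold change of -0.75 (limma adjusted p = 0.116). Jak3, a kinase of lymphoid cells, was at 0 in each YFP library, with 0.886 and 0.972 FPKM in the DEK libraries, where leukocyte markers were also higher. The part of leukocytes in the Jak3 values was not tested.

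All 5 other SOCS family genes were tested and 0 passed limma. At an unadjusted p under 0.05, which 29.1% of all tested genes met, there were 1 higher and 2 lower. Socs7 had a log2 fold change of -0.72 (limma adjusted p = 0.0674), Socs4 one of 0.70 (adjusted p = 0.107) and Cish, like Socs2 a known target of Stat5, one of -1.02 (adjusted p = 0.110). Cish was at 2.42 and 3.60 FPKM in the YFP pair against 1.58 and 0.490 FPKM in the DEK pair, below both YFP values in each DEK library.

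Of 11 other inhibitors 1 fell and 0 rose by limma, while 3.21% of all tested genes were called lower and 4.57% higher. At an unadjusted p under 0.05, which 29.1% of all tested genes met, there were 2 higher and 2 lower. Ptpn1, a phosphatase that acts on Jak2 and on the insulin receptor, went from 38.6 and 42.3 FPKM in YFP to 19.4 and 24.0 FPKM in DEK (log2 fold change -0.87, SE 0.17, limma adjusted p = 0.0372). Sh2b3, an adaptor that restrains Jak2, was at 34.2 and 33.1 FPKM in the YFP libraries, with 21.3 and 25.5 FPKM in the DEK libraries (log2 fold change -0.51, limma adjusted p = 0.0994). The 2 higher were the leukocyte phosphatases Ptprc and Ptpn6, at 1.53 FPKM or less in every library (limma adjusted p = 0.0765 and 0.111). Both were tested only because their DEK values passed 1 FPKM, so nothing is read from their direction.

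Of 10 cytokine receptors that signal through Jak2, 7 were tested. By limma 1 fell and 0 rose, while 3.21% of all tested genes were called lower and 4.57% higher. At an unadjusted p under 0.05, which 29.1% of all tested genes met, there were 2 higher and 3 lower. Of the 2 higher, 1 was tested only because its DEK values passed 1 FPKM. Il3ra, the alpha chain of the interleukin receptor of that name, went from 15.0 and 13.6 FPKM in YFP to 6.77 and 7.90 FPKM in DEK (log2 fold change -0.88, SE 0.18, limma adjusted p = 0.0401). The interferon gamma receptor chain Ifngr2 was at 54.8 and 48.4 FPKM in the YFP pair against 18.1 and 31.4 FPKM in the DEK pair (log2 fold change -1.08, limma adjusted p = 0.0625). The growth hormone receptor Ghr, whose signal Socs2 restrains, was at 151 and 95.5 FPKM in YFP, with 177 FPKM in both DEK libraries (limma adjusted p = 0.173).

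**Figure D5:**
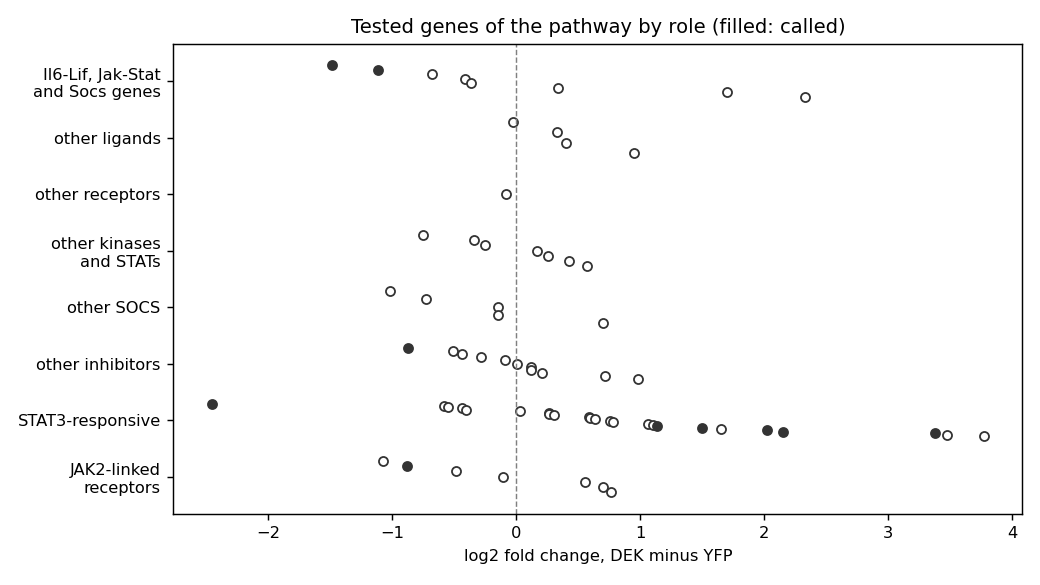
Log2 fold change (DEK minus YFP, horizontal axis) of each tested gene, in 1 band per list; filled points passed limma at an adjusted p under 0.05. The filled points on the right all belong to the STAT3-responsive list, and the median of the 58 tested genes outside the top band is 0.26. Among these points, Lrg1 and Fgl2 passed the low filter only through DEK, and Ier3 is also a dissociation response gene. Nothing is read from the place of these points or from the median.

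Of the 28 STAT3-responsive genes, chosen as genes known to answer to STAT3 in some cell type, 24 were tested. By limma 5 rose and 1 fell, 25% against 7.78% of all tested genes called in either direction. At an unadjusted p under 0.05, which 29.1% of all tested genes met, there were 11 higher and 2 lower. The median log2 fold change was 0.70, against 0.05 over all tested genes. Among the called genes, 3 passed the low filter only through the group where they were higher. The dissociation response list also holds 4 of the 28, so nothing is read from these shares or this median. Bcl6, a transcriptional repressor, went from 92.0 and 64.2 FPKM in YFP to 229 and 209 FPKM in DEK (log2 fold change 1.496, SE 0.20, limma adjusted p = 0.0155). Steap4, a metal reductase, went from 49.9 and 51.8 to 108 and 118 FPKM (log2 fold change 1.14, SE 0.13, adjusted p = 0.0115). Both were at similar levels in the 2 DEK libraries. Ier3, an immediate early gene that the dissociation response list also holds, was at 4.91 and 6.22 FPKM in the YFP libraries, with 147 and 30.0 FPKM in the DEK libraries (log2 fold change 3.38, SE 0.67, limma adjusted p = 0.0403), with DEK replicate 1 again the higher of the pair.

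Lrg1, a glycoprotein of endothelium and neutrophils, was at 0.145 and 0 FPKM in the YFP pair against 3.59 and 3.96 FPKM in the DEK pair (limma adjusted p = 0.00721). Fgl2, a fibrinogen-like protein made by leukocytes and endothelium, was at 0.0866 and 0 FPKM in the YFP libraries, with 3.98 and 2.62 FPKM in the DEK libraries (limma adjusted p = 0.0125). Both genes were tested only because their DEK values passed 1 FPKM. In the same libraries the endothelial adhesion molecule Pecam1 was at 0.745 and 0.579 FPKM in the YFP pair against 15.3 and 12.1 FPKM in the DEK pair, and the neutrophil chemokine receptor Cxcr2 was listed at 0 in YFP and stood at 2.90 and 3.44 FPKM in DEK. The part of those cells in the Lrg1 and Fgl2 values was not tested. Serpina3n, a protease inhibitor of the acute phase, was at 8.91 and 3.87 FPKM in the YFP pair against 0.330 and 0.205 FPKM in the DEK pair (log2 fold change -2.46, SE 0.36, limma adjusted p = 0.0199), and it was tested only because its YFP values passed 1 FPKM. Of the 28 genes, 4 are also in the dissociation response list: Junb, Fos, Myc and Ier3. Junb was highest in DEK replicate 1, at 2156 FPKM, and stood at 254 FPKM in DEK replicate 2 and at 58.9 and 48.1 FPKM in YFP (limma adjusted p = 0.0608).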

How the data were processed

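The table that the authors deposited holds FPKM, 1 for each symbol in each library. Per the submitters' processing notes, STAR 2.5.3a, StringTie 1.3.3 and R 3.4.1 were used on build mm9; annotation, settings and filters are not given in the sources used here. The unit is inferred from values that are not whole and from StringTie, so TPM over a fuller annotation is possible. Each of the 4 columns was mapped to a library. Column totals were 541183 and 541320 FPKM in YFP and 545123 and 543223 FPKM in DEK; depth is unknown, so no counting intervals are given.

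Values were analysed as log2(FPKM + 1) with limma 3.58.1 in R 4.3.3, using an empirical Bayes variance trend, no covariates and two-sided tests. A gene was tested if 2 or more libraries reached 1 FPKM (12179 genes), with Benjamini-Hochberg adjustment over all of them and a call at 0.05. Adding 1 shrinks the fold change of genes with low levels. Alternatives were each library left out, with or without a new low filter, a block for the replicate number, 0.1 or 5 in place of the added 1, other low filters, trimmed mean (TMM) factors, quantile normalization, removal of the ribosomal RNA precursor Rn45s, other variance models and a looser threshold. Named genes were the 10 genes, Dek, and in each list of other genes those called and otherwise up to 3 with the smallest p; Osm, Il6ra, Cntfr, Jak3, Stat5a, Ghr, Junb, Myc, Fos, Ptpn6 and the markers were named after their values were seen. Some genes that this rule would name are not reported here. The members and lists were chosen with earlier results of these data known. Promoter sequences are RefSeq's on GRCm38.p6, and the motifs were chosen with these sequences in view; no coordinates were converted.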

Additional observations from a re-analysis of the deposited data

How the results depend on the processing

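The direction of each of the 8 tested genes was the same under all 19 alternatives. Osmr and Socs2 passed limma under 13 of 19 each (adjusted p from 0.0114 to 0.109 and from 0.0046 to 0.0838); the others were fits without 1 library. With the low filter set anew on the 3 libraries left, both passed without a DEK library and neither without a YFP library. Over all 8 fits that left out 1 library, 0 to 2 of the genes were called higher and 0 to 2 lower, 0 to 7 other genes of the route higher and 0 to 4 lower, and 0 to 780 of all genes (0 to 184 on the same genes, and 168, 83, 302 and 780 without YFP replicate 1 or 2 and DEK replicate 1 or 2 when the filter was set anew). Il6 and Lif were tested only with no low filter (adjusted p = 0.396 and 0.160). With no low filter limma called 0 other genes of the route lower and 293 of all genes; with 5 FPKM as the filter, 3 other genes higher; at an adjusted p under 0.1, 12 higher, 7 lower and 2096 of all genes, with Jak2 the gene added. Replicate numbers did not pair the libraries (correlation of deviations 0.0635). With the replicate block 1 other gene of the route was lower and 618 genes were called in all, and Osmr and Socs2 still passed (adjusted p = 0.0303 and 0.0171). With Rn45s removed, the median over all tested genes went from 0.05 to -0.07 (log2) and the share of higher genes among all calls from 58.8% to 42.8% (45.4% with quantile normalization). Rn45s made up 11.8% and 15.7% of the column totals of YFP replicates 1 and 2, and 5.15% and 5.55% of those of DEK. Rescaling after its removal therefore raised the other genes more in YFP than in DEK. The reason for the unequal Rn45s shares was not tested, nor was that for the change with quantile normalization. With 2 libraries a group, unknown depth and the group tied to age and reporter, the fits describe these libraries.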
